A study of Mus musculus with 23 samples.

Results

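Myeloperoxidase (Mpo), neutrophil elastase (Elane), proteinase 3 (Prtn3) and cathepsin G (Ctsg) were followed by name in sorted mouse neutrophils. They are 4 of the 21878 genes in the tables, and each matched 1 row by gene symbol. Sorted CD45+CD11b+Ly6G+ neutrophils from lung, peripheral blood (PB) and bone marrow (BM) of wild-type mice were measured by bulk RNA-Seq, with 3 libraries a tissue. A second experiment held lung and PB neutrophils, with 2 libraries a group. Its Piezo1-cKO mice carried Piezo1 fl/fl and Vav1-iCre. Its WT mice are labelled wt with no further genotype, and the study names Piezo1 fl/fl for the WT mice of its lung imaging. Vav1 drives Cre in all hematopoietic cells, so the deletion was not limited to neutrophils. A further experiment held 6 whole lungs, 3 from mice depleted of neutrophils and 3 from their controls. The labels give neither age nor sex, and do not say whether a library came from 1 mouse or from a pool. They name no separate animals for the replicates. The study's methods call its replicates biologically independent, and a figure legend of the study gives 3 mice for the BM, lung and PB neutrophils. Where libraries share an animal, p-values measure the spread between these libraries only.

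Neutrophils carry their proteases and antimicrobial proteins in granules that are filled in sequence as the cells mature in the marrow. The primary, or azurophil, granules come first, and their contents are transcribed in promyelocytes and then silenced, whereas the specific and gelatinase granules are filled later. A mature neutrophil therefore holds abundant myeloperoxidase, elastase, proteinase 3 and cathepsin G protein while making little of their mRNA. Myeloperoxidase is the heme enzyme that turns hydrogen peroxide and chloride into hypochlorous acid. The other members are serine proteases that degrade microbial proteins and extracellular matrix.

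The sorted libraries held 9621120 to 19330774 reads in genes. All 12 mature neutrophil markers, Ly6g and S100a8 among them, had a mean FPKM (reads scaled to transcript length and library size) of at least 1 in every group. PB replicate 3 of the tissue experiment stood farthest from its own group. Piezo1 itself had 3 to 10 reads in each of the 8 libraries of the second experiment. It lay at 0.0577 and 0.0571 FPKM in WT lung, above 0.0510 and 0.0301 in Piezo1-cKO lung, whereas PB overlapped, with 0.0407 and 0.0357 in WT and 0.0335 and 0.0758 in Piezo1-cKO. With so few reads the level over the whole gene is a weak check of the genotype labels. All 8 values lay below those of the tissue experiment, whose WT libraries held between 0.213 and 1.27 FPKM. Erythroid genes summed to between 1011 and 1136 FPKM in Piezo1-cKO PB against 25.1 to 26.8 in WT PB. Basophil and mast cell markers, among them the mast cell proteases that lie near Ctsg, summed to at most 0.262 FPKM in a library. Of the 9 such markers with values, 7 to 9 were listed at 0 in every group except tissue PB, with 6.

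All 4 members were scarce in these neutrophils. Over the 17 sorted libraries 532 reads fell on them, of which Prtn3 took 359, Mpo 118, Elane 33 and Ctsg 22. Prtn3 was read in all 17 libraries and reached 1 FPKM in 12 of them. Mpo was read in 14 libraries, Elane in 7 and Ctsg in 6, and none of these 3 reached 1 FPKM in any library. The highest single values were 2.44 FPKM for Prtn3 in PB, 0.862 for Mpo in WT lung, 0.680 for Elane in BM and 0.566 for Ctsg in Piezo1-cKO PB. Together the members took 2.64 of every 1000000 reads in BM, 2.39 in PB and 1.52 in lung of the tissue experiment. In the Piezo1 experiment they took 1.17 of every 1000000 reads in WT PB, 1.14 in Piezo1-cKO PB, 3.21 in lung of WT and 0.621 in lung of Piezo1-cKO mice. By mean FPKM, Prtn3 ranked 7558 in BM and Mpo ranked 9515, among 13312 genes detected there. Intervals on reads below are exact 95% Poisson intervals and cover counting error only, and a group with 0 reads is set at a floor of 3 reads. A ratio from 1 to 3 reads is printed with its interval, and no fold is given where both groups had 3 reads or fewer.

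**Figure D1:**
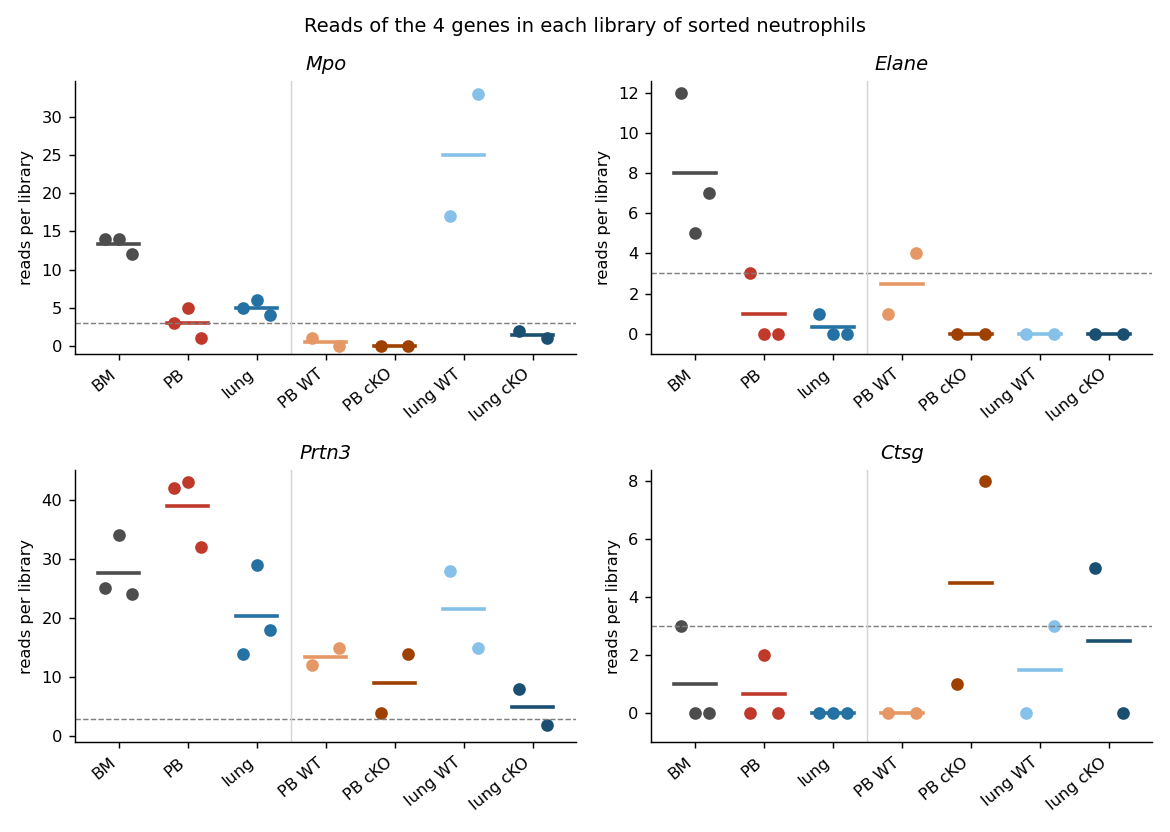
Reads on Mpo, Elane, Prtn3 and Ctsg (y axis, reads per library) in each library of sorted neutrophils, 1 point a library, by group (x axis). Bars are group means, the dashed line marks 3 reads and the vertical line parts the tissue experiment (left, 3 libraries a group) from the Piezo1 experiment (right, 2 a group). Mpo lay at 12 to 14 reads in BM and at 17 and 33 in WT lung, against 6 or fewer in every other library.

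The genes lie in 3 places in the mouse genome. In mm10 (GRCm38), RefSeq places Mpo on chromosome 11, plus strand, from 87793784 to 87804412, beside the peroxidase genes Epx and Lpo. Prtn3 (chromosome 10, plus strand, 79879667 to 79883174) and Elane (79886312 to 79888216) follow each other on the same strand, 3137 bases apart. Ctsg lies on chromosome 14, minus strand, from 56099885 to 56102574, in the cluster of granzyme and mast cell protease genes. In GENCODE the antisense gene Gm11505 lies within Mpo over 5361 bases and is not analysed here, and 159 bases of Prtn3 overlap Plppr3 on the other strand. Plppr3 lay between 0.150 and 0.972 FPKM. The strand setting of the counting is not given in the sources used here, so reads from these overlaps cannot be told apart from those of Mpo and Prtn3.

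The 250 bases before each RefSeq start are printed to show which letter patterns of known regulators of granule genes the 4 promoters share. GENCODE begins some transcripts of Mpo, Elane and Prtn3 farther upstream. The sequences are from RefSeq on GRCm38.p6, 5′ to 3′ on the gene's strand, at chr11:87793534-87793783 for Mpo, chr10:79886062-79886311 for Elane, chr10:79879417-79879666 for Prtn3 and chr14:56102575-56102824 for Ctsg. Capitals mark matches, on either strand, to PU.1 (GAGGAA), MYB (AACNG), RUNX (TGTGGT) and the TATA box (TATAA), and none of the matches overlaps another.
Mpo: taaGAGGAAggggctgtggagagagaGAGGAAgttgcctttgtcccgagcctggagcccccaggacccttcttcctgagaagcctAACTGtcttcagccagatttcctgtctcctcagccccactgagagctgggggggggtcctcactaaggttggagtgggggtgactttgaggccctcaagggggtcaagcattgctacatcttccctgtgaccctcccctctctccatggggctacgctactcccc
Elane: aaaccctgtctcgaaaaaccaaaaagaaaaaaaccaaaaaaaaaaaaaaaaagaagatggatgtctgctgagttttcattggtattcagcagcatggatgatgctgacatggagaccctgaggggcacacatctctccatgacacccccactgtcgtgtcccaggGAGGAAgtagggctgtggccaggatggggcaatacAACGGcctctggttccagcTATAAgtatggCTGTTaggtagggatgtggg
Prtn3: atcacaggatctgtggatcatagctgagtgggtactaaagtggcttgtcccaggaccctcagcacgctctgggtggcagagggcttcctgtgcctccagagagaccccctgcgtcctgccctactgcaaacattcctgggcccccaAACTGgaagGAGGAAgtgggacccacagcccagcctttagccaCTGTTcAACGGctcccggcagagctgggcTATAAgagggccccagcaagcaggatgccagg
Ctsg: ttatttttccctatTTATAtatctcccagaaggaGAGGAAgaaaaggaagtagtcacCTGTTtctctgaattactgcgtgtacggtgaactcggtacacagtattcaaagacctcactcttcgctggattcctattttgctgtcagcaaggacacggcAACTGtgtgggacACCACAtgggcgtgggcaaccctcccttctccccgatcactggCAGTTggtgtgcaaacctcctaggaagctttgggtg

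Within 250 bases before to 50 after the start, the PU.1 letters stood in all 4 windows, against 28.3% of 32851 such windows in the annotation. Mpo held them 2 times and each protease gene 1 time. The MYB letters also stood in all 4, but 80.3% of all windows hold them. The TATA letters (24.9% of windows) began 31 bases before the start of Elane and 32 before that of Prtn3. Ctsg held them on the opposite strand only, 236 bases upstream, and Mpo not at all. The RUNX letters (16.8%) stood in Ctsg alone, and the C/EBP letters (TTGCNNAA, 10.8%) in none of the 4. Such matches are a description of the letters and no record of binding.

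In BM, where granules are made, Mpo, Elane and Prtn3 were all read in every library. Mpo had 14, 14 and 12 reads in the 3 BM libraries, 3, 5 and 1 in PB, and 5, 6 and 4 in lung. These are 0.276 ± 0.0168 FPKM in BM, 0.0648 ± 0.0428 in PB and 0.116 ± 0.0211 in lung (SD, n = 3). Every BM library lay above every PB and lung library, while PB and lung overlapped. Mpo was 4.27-fold higher in BM than in PB as a share of all reads (interval 2.04 to 10.02) and 2.38-fold higher than in lung (1.29 to 4.64). Such a complete separation was common: 34.2% of genes with any read were lower in all PB than in all BM libraries, and 51.8% were lower in all lung than in all BM libraries.

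Elane, mutated in many patients with severe congenital neutropenia, was likewise highest in BM, with fewer reads. It had 12, 5 and 7 reads in BM, 3, 0 and 0 in PB, and 1, 0 and 0 in lung. BM libraries lay between 0.281 and 0.680 FPKM and did not overlap PB or lung, each of which had a single library with reads. The ratio of BM to PB was 7.69 (interval 2.34 to 39.9, from 3 PB reads) and that of BM to lung 21.4 (3.50 to 881, from 1 lung read). Ctsg had 3 reads or fewer in each of the 3 tissues, with 3 reads in 1 BM library, 2 reads in 1 PB library and none in lung, where the floor of 3 reads is 0.0590 of every 1000000 reads.

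Prtn3, an elastase-like protease and the autoantigen of ANCA vasculitis, had its highest mean in PB, while BM and lung overlapped. Its reads were 25, 34 and 24 in BM, 42, 43 and 32 in PB, and 14, 29 and 18 in lung. These are 1.50 ± 0.270 FPKM in BM, 2.20 ± 0.376 in PB and 1.23 ± 0.459 in lung (SD, n = 3). BM overlapped both other tissues, whereas every PB library lay just above every lung library, as did 43.5% of genes with any read. PB exceeded lung 1.78-fold as a share of reads (interval 1.30 to 2.47) and BM 1.47-fold (1.10 to 1.97). BM and lung differed by 1.22-fold, with an interval of 0.863 to 1.72 that includes no difference.

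The main test was limma on log2(FPKM + 1), which understates changes of low genes, and a gene was called at an adjusted p under 0.05 and a log2 fold change beyond 1. Prtn3 alone passed its filter on low values, and 0 of the 4 members were called in any tissue comparison. At an unadjusted p under 0.05 Prtn3 passed from BM to PB and from PB to lung. Over all genes tested 45.9% were called between lung and BM, 22.0% between PB and BM and 27.2% between lung and PB. The log2 fold change of Prtn3 was 0.36 ± 0.12 (SE) from BM to PB with an adjusted p of 0.0250. From PB to lung it was -0.53 ± 0.16 with an adjusted p of 0.0128, close to the median of -0.54 over all genes tested, and -0.17 with an adjusted p of 0.392 once FPKM was rescaled by the median ratio between libraries. From BM to lung it was -0.18 ± 0.14 with an adjusted p of 0.249, and rescaling turned its sign to 0.20 (adjusted p = 0.232), since the median of all genes then moved from -0.70 to -0.15. The difference from BM to PB kept its adjusted p under the threshold without PB replicate 3 (0.46, adjusted p = 0.00304) but was lost without BM replicate 1 or 3 or without PB replicate 1 or 2, with adjusted p between 0.0683 and 0.0960.

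Because the other 3 members lay under the filter, they were also tested with edgeR on the reads recovered from FPKM, without a filter. From BM to PB this test called 2 of the 4 members lower, Mpo with a log2 fold change of -1.93 (adjusted p = 0.0236) and Elane with -2.68 (adjusted p = 0.0423), where 25.5% of all genes were called and 15.9% were called lower. From BM to lung it called Elane alone, with -3.37 (adjusted p = 0.0152), where 37.6% of genes were called and 19.4% were called lower, and Mpo reached -0.50 (adjusted p = 0.495). From PB to lung it called no member, and none passed at the unadjusted p, where 19.6% of genes were called. DESeq2 called Mpo from BM to PB (adjusted p = 0.0306) and Elane from BM to lung (adjusted p = 0.0435), but not Elane from BM to PB (adjusted p = 0.0572). Each of these calls was lost on leaving out some single library. Mpo from BM to PB was lost without any 1 of the 3 BM libraries or without PB replicate 3, with adjusted p between 0.0539 and 0.0752. Elane was lost from BM to PB without any 1 BM library or PB replicate 2 or 3, and from BM to lung without BM replicate 1 or lung replicate 2 or 3.

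**Figure D2:**
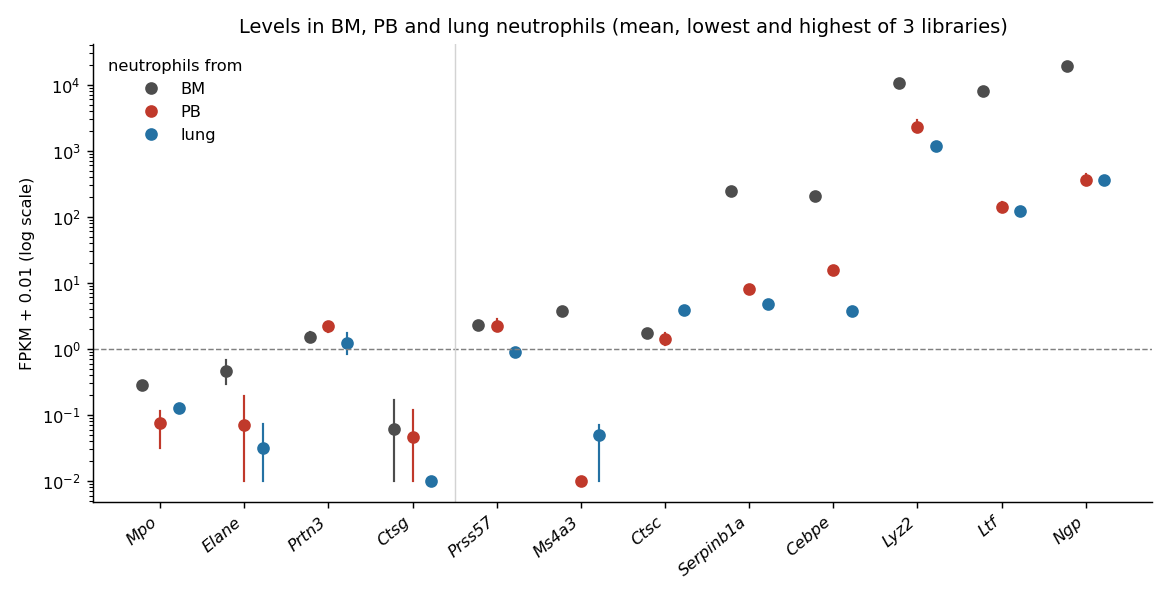
Level (y axis, FPKM + 0.01, log scale) of the 4 genes, left of the vertical line, and of 8 genes of their lists in BM, PB and lung neutrophils. Points are means of 3 libraries, lines run from the lowest to the highest library and the dashed line marks 1 FPKM. Prtn3 stayed between 1.23 and 2.20 in the 3 tissues, and Ngp fell from 19424 in BM to 358 in PB and 364 in lung.

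Other genes of the same granule were not alike in their order. Of 15 other primary granule genes 14 were tested, and from BM to lung 4 fell and 2 rose (3 and 3 after rescaling). Before rescaling 45.9% of all genes tested were called between these tissues, in either direction. Prss57, a further serine protease of the azurophil granule, was nearest to Prtn3 in level, at 2.30 ± 0.335 FPKM in BM, 2.25 ± 0.479 in PB and 0.883 ± 0.0889 in lung (SD, n = 3). Lyz2, the lysozyme held in all granule types, fell from 10452 FPKM in BM to 2279 in PB and 1181 in lung. Cd68, a membrane protein of lysosomes, rose from 37.4 FPKM in BM to 93.4 in PB and 128 in lung. The median of the 14 log2 fold changes from BM to lung was -0.62 beside -0.70 over all genes. Bpi, a bactericidal protein of the human azurophil granule, had 7, 5 and 0 reads in BM, PB and lung.

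Genes of later granules and of early granulocytic cells were much higher in BM. All 16 specific and gelatinase granule genes were tested, 14 fell from BM to lung (12 after rescaling) and 11 from BM to PB. Ltf, or lactoferrin, went from 8150 FPKM to 139 and 121, and Ngp from 19424 to 358 and 364. Ms4a3, which marks granulocyte and monocyte progenitors, had 217 reads in BM, 0 in PB and 2 in lung. Fcnb, a ficolin of immature neutrophils, went from 34.4 FPKM in BM to 0.216 in PB and 0.322 in lung, and Mki67, a proliferation gene, from 16.2 to 0.0524 and 1.46. Of the early granulocytic list 14 of 16 genes had a mean of at least 1 FPKM in BM, 5 in PB and 6 in lung, and 10 of 14 tested fell from BM to each of the other tissues. These genes moved with Mpo and Elane between tissues, and their part in that difference was not tested. In sorted bulk samples a lower share of immature cells and less RNA per cell cannot be told apart.

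The machinery that matures, packs and holds back these enzymes moved in both directions. Ctsc, the dipeptidyl peptidase that activates the granule serine proteases, was at 1.72 FPKM in BM, 1.40 in PB and 3.93 in lung and was called higher in lung than in PB (log2 fold change 1.04, adjusted p = 4.04e-05). Srgn, the proteoglycan serglycin that holds them in the granule, rose from 132 FPKM in BM to 642 in PB and 1934 in lung. Hspa5, an endoplasmic reticulum chaperone, rose from 87.8 to 183 and 420, while Hsp90b1, of the same compartment, fell from 43.6 to 21.0 and 15.4. Of the 14 genes of that list tested, 2 rose and 4 fell from BM to lung (3 and 0 after rescaling). Before rescaling 45.9% of all genes tested were called there, in either direction. Of 15 inhibitors only 3 passed the filter. Serpinb1a, the serpin that blocks elastase, proteinase 3 and cathepsin G, fell from 247 FPKM in BM to 7.95 in PB and 4.73 in lung. Serpinb6a, which blocks cathepsin G, fell from 16.1 to 4.92 and 2.18, and Slpi, the secreted elastase inhibitor, rose from 889 to 1869 and 2089.

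Of the regulators of the primary granule programme, 7 of 11 tested fell from BM to lung and 2 rose (6 and 2 after rescaling), with a median log2 fold change of -1.98 beside -0.70 over all genes. From BM to PB 4 of 10 fell and 1 rose, with a median of -0.23 beside -0.12. Of all genes tested 45.9% were called from BM to lung and 22.0% from BM to PB, in either direction. Cebpe, the factor of late granule genes, went from 203 FPKM in BM to 15.4 in PB and 3.73 in lung. Gfi1, a repressor that directs granulocyte development, went from 5.69 to 0.440 and 0.704, and Myb from 6.89 to 0.242 and 0.193. Spi1, which encodes PU.1, was 391 ± 7.94 FPKM in BM, 655 ± 47.2 in PB and 428 ± 6.91 in lung (SD, n = 3) and was called in no tissue comparison. Among the neighbours of the 4 genes Med16 alone was tested, and it fell from 9.71 FPKM in BM to 2.01 in PB and 0.728 in lung. Epx, Lpo and Cfd, which flank Mpo and the pair of Prtn3 and Elane, were at or near 0.

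The Piezo1 experiment asked whether loss of this mechanically gated ion channel alters neutrophils in lung and PB. In the lung, Mpo had 17 and 33 reads in WT and 2 and 1 in Piezo1-cKO libraries. WT lay at 0.448 and 0.862 FPKM and Piezo1-cKO at 0.0534 and 0.0275, with no overlap. WT was 16.1-fold higher as a share of reads (interval 5.21 to 80.9, from 3 Piezo1-cKO reads). Prtn3 had 28 and 15 reads in WT against 8 and 2 in Piezo1-cKO lung, or 1.48 ± 0.642 against 0.352 ± 0.293 FPKM (SD, n = 2). WT was 4.16-fold higher (2.06 to 9.29), again with no overlap, and 26.3% of all genes were likewise lower in both Piezo1-cKO than in both WT lung libraries. Elane had no read in any of these 4 libraries, and Ctsg had 0 and 3 reads in WT against 5 and 0 in Piezo1-cKO.

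Prtn3 was the one member that passed the filter of limma in the genotype comparisons and between WT lung and WT PB. It was not called between the genotypes in lung, where 0.995% of all genes tested were called. It passed the adjusted p (log2 fold change -0.87 ± 0.21, SE, adjusted p = 0.0162) but not the fold, and its change lay well below the median of 0.09 over all genes. With a pseudocount of 0.1 it was called, with -1.92 (adjusted p = 0.0268), where 5.16% of all genes were. It was called too without Piezo1-cKO lung replicate 1 (-1.09, adjusted p = 0.0129), whereas without replicate 2 its adjusted p was 0.0610. edgeR without a filter called Mpo lower (-4.02, adjusted p = 0.0263), where 6.26% of all genes were called and 2.56% were called lower, and gave Prtn3 -2.15 with an adjusted p of 0.0945. With the filter, edgeR called both, at adjusted p of 3.95e-06 for Mpo and 0.00117 for Prtn3, where 13.8% of genes were called. Among the lung libraries of this experiment Prtn3 reached 1 FPKM in WT only, and both genes met the edgeR filter through WT reads. Each filter was thus passed through the higher group, so the filtered p-values of limma and edgeR are no separate support. DESeq2 called Mpo (-4.13, adjusted p = 0.00308) and not Prtn3 (adjusted p = 0.0747). Without either Piezo1-cKO library the unfiltered edgeR call of Mpo was lost, with adjusted p of 0.176 and 0.180.

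No gene of the other primary granule, maturation, inhibitor, heme or regulator lists was called by limma between the genotypes in lung, of 14, 12, 3, 5 and 8 tested. Some passed the adjusted p but not the fold, in both directions. Among them Srgn (-0.29, adjusted p = 9.84e-05) and Cebpb (-0.38, adjusted p = 0.00236) were lower in Piezo1-cKO. Urod of the heme list (0.65, adjusted p = 0.000498) and Gusb of the primary granule list (0.54, adjusted p = 0.00170) were higher. Prss57 stood at 1.27 FPKM in Piezo1-cKO and 1.36 in WT lung, and Ctsc at 3.77 and 4.12. Ms4a3 had 3 and 9 reads in WT lung and 0 and 4 in Piezo1-cKO lung, so the genotypes overlapped for this progenitor marker. In the same libraries and order, Mpo had 17 and 33 reads in WT and 2 and 1 in Piezo1-cKO lung. Of the early granulocytic list, 6 genes had a mean of at least 1 FPKM in WT and 5 in Piezo1-cKO lung, and its summed level was 529 to 532 FPKM in WT and 498 to 503 in Piezo1-cKO. Cd34, Nkg7, Cdk1 and Fcnb of that list were listed at 0 in both WT lung libraries. Of the specific and gelatinase granule list 0 of 15 tested were called, with a median of 0.25 beside 0.09 over all genes. Chil3, a chitinase-like protein, passed the adjusted p but not the fold (0.76, adjusted p = 2.97e-05), with 101 FPKM in Piezo1-cKO and 59.1 in WT lung. Camp, the cathelicidin (0.56, adjusted p = 0.000156), and Ltf (0.43, adjusted p = 0.000103) did so too. Lcn2 of the same list went the other way (-0.31, adjusted p = 9.69e-05), with 857 FPKM in Piezo1-cKO and 1062 in WT lung. The part of early granulocytic cells in the Mpo and Prtn3 difference was not tested.

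In PB, Prtn3 had 12 and 15 reads in WT and 4 and 14 in Piezo1-cKO PB, and the groups overlapped at 0.982 ± 0.0645 and 0.722 ± 0.417 FPKM (SD, n = 2). limma gave it a log2 fold change of -0.22 ± 0.17 (SE, adjusted p = 0.294), so it was not called, nor did it pass at the unadjusted p, where 3.65% of genes were called. Without Piezo1-cKO replicate 1, the shallowest library, the difference of Prtn3 was 0.026. Mpo had 1 and 0 reads in WT and none in Piezo1-cKO. Elane had 1 and 4 reads in WT and none in Piezo1-cKO PB, a ratio of 1.41 against a floor of 3 reads. Ctsg went the other way, with none in WT and 1 and 8 reads in Piezo1-cKO, a ratio of 3.56 against the same floor. These ratios leave out counting error and are no lower bounds. The Poisson intervals of the shares of reads overlapped between genotypes for Elane and not for Ctsg. Library values did not overlap for either gene, nor did those of 40.8% of genes that were lower and 27.9% that were higher in Piezo1-cKO. edgeR without a filter called Ctsg (adjusted p = 0.0243), where 19.4% of genes were called and 6.35% were called higher, and DESeq2 did not (adjusted p = 0.142). The call rests on 1 library with 8 reads, since without Piezo1-cKO replicate 2 its adjusted p was 0.458, and it was lost without either WT library as well. Erythroid genes moved with genotype in the same PB libraries, with Hba-a1 at 441 FPKM in Piezo1-cKO and 10.04 in WT, and their part in these differences was not tested. Of the 15 primary granule genes besides the members, Arsb, a lysosomal sulfatase, was the one called, from 3.68 to 0.781 FPKM.

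The difference between the lung and the PB genotype effect on Prtn3 was -0.64 ± 0.31 on the log2 scale (SE, adjusted p = 0.119 by limma), so a genotype effect particular to the lung was not shown. Prtn3, the one member tested, did not pass at the unadjusted p either, where 48.2% of genes were called. Here a call needed the adjusted p only, whatever the size of the difference, so these shares of genes called cannot be set beside those of the other comparisons. Omitting WT lung replicate 2 (-0.91, adjusted p = 0.0453) or Piezo1-cKO PB replicate 1 (-0.89, adjusted p = 0.0456) brought it past the threshold. For Mpo the same difference was called by limma without a filter (-0.64, adjusted p = 0.0260, where 31.4% of genes were called) and not by edgeR (-1.96, adjusted p = 0.853 with a filter) or DESeq2 (adjusted p = 0.432). Mpo had 1 and 0 reads in WT PB and none in Piezo1-cKO PB, so a lower level in Piezo1-cKO PB could not be seen. The limma call therefore cannot show an effect particular to the lung.

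Lung and PB could be compared a second time, within each genotype of that experiment. WT lung exceeded WT PB in Mpo by 47.1-fold (interval 8.08 to 1898, from 1 PB read). In the tissue experiment the same ratio of lung to PB was 1.79 (0.736 to 4.65), with overlap. WT lung held 0.655 ± 0.293 FPKM of Mpo here (SD, n = 2) and 0.116 ± 0.0211 there (SD, n = 3), in tables scaled separately, and this difference was not tested. limma tested Prtn3 alone of the members and did not call it, where 34.0% of genes were called, nor did it pass at the unadjusted p. edgeR without a filter called Mpo (5.87, adjusted p = 0.000771) and Prtn3 (1.27, adjusted p = 0.0391), where 25.8% of genes were called and 11.7% were called higher, and DESeq2 called Mpo (adjusted p = 0.000345) and not Prtn3 (adjusted p = 0.129). The Mpo call was lost without either WT PB library, with adjusted p of 0.0697 and 0.0864, and the Prtn3 call without either WT PB library or without WT lung replicate 1. In limma Prtn3 was 0.30 ± 0.17 higher in lung (SE, adjusted p = 0.128), or 0.65 after rescaling (adjusted p = 0.0139), where the tissue experiment had given -0.53. It was 0.57 (adjusted p = 0.000880) without WT lung replicate 2 and 0.032 without WT lung replicate 1. In Piezo1-cKO mice Mpo had 3 reads in lung and 0 in PB, for which no fold is given, though every lung library lay above PB, as for 23.1% of genes. Prtn3 had 10 reads in lung and 18 in PB of Piezo1-cKO mice, and no member passed the limma filter there, where 30.9% of genes tested were called. In WT mice Elane had 5 reads in PB and 0 in lung, a ratio of 1.77 against a floor of 3 reads. This ratio leaves out counting error, and the Poisson intervals of the PB and lung shares of reads overlapped. Both WT lung libraries lay below both WT PB libraries for 58.6% of genes.

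**Figure D3:**
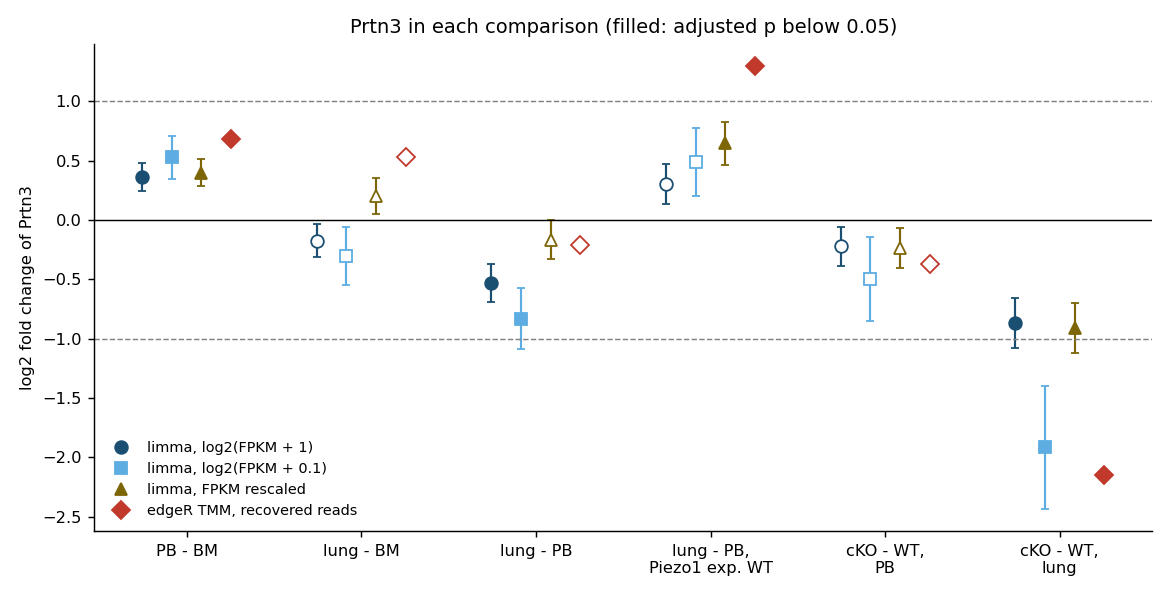
log2 fold change of Prtn3 (y axis) in 6 comparisons (x axis) under 4 analyses, with standard errors for the limma fits and none for edgeR. Filled symbols have an adjusted p under 0.05 and dashed lines mark a log2 fold change of 1 in either direction. Between genotypes in lung all 4 analyses lay below 0, from -0.87 to -2.15, whereas from BM to lung the sign turned between -0.18 and 0.53.

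In whole lung all 4 members lay under 1 FPKM. Mpo was listed at 0 in all 3 controls and at 0.0822, 0.0814 and 0.0320 FPKM in the depleted lungs, a separation in this direction that 4.06% of genes showed. Prtn3 was 0.260, 0.249 and 0.177 FPKM in controls and 0.0407, 0.0581 and 0.193 in depleted lungs, with overlap. Elane was listed at 0.341 FPKM in 1 control and Ctsg at 0.132 in another, and both at 0 in the other lungs. No member passed the filter of the limma test, which called 0.00715% of genes. S100a8, a neutrophil calcium-binding protein, was 37.1 ± 3.57 FPKM in control and 13.8 ± 6.71 in depleted lungs, and Csf3r, the G-CSF receptor, 12.0 ± 0.674 and 3.28 ± 1.78 (SD, n = 3). Ctsc was abundant in whole lung, at 65.0 ± 3.57 and 58.8 ± 6.08 FPKM (SD, n = 3).

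Correlation between the 4 genes over the libraries was low, but few reads limit what it can show. Pearson's r of log2(FPKM + 1), centred within each experiment over the 17 sorted libraries, was 0.31 for Mpo and Prtn3, 0.16 for Mpo and Elane and between -0.02 and 0.02 for the other pairs. Among 4511 genes with at least 5 FPKM, those most like Mpo were Atp6v1a (r = 0.79) and Agpat4 (0.78). Those most like Elane were Yeats4 (0.89) and Uqcrb (0.88), and for Prtn3 and Ctsg the closest were Zmat2 (0.65) and C1galt1c1 (0.65). These correlations are descriptions over libraries that share depth and tissue. Elane was at 0 in 10 and Ctsg in 11 of the 17 libraries, with at most 12 and 8 reads in a library. Their r with other genes rests on a few reads and cannot tell whether they vary together.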

How the data were processed

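Neutrophils were sorted as CD45+CD11b+Ly6G+ cells, and PB and lung cells had passed a negative selection first. Per the study's methods, the authors processed 150 bp paired reads with fastp, mapped them with HISAT2, counted genes with HTSeq and tested them with DESeq2 on mm10, and versions are not given in the sources used here. The methods and the labels name different library kits. The deposited values used here were FPKM per gene and library. In the deposited lung table the signal columns hold the authors' group means of counts over size factors, which served to check the recovered reads. The authors' own fold change ratio, p-value and q-value columns were not used.

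Low FPKM values stepped by the worth of 1 read, so reads were recovered for 100.0% of values (tolerance 0.02 reads). A common factor was settled from the authors' means for 690 genes and stayed unknown for 837, none of them with more than 287 reads. The main test was limma 3.58.1 (trend and robust) in R 4.3.3 on log2(FPKM + 1) over genes with at least 1 FPKM in 3 libraries (2 libraries for the Piezo1 comparisons), and p-values were adjusted by Benjamini-Hochberg over all genes tested. Calls needed an adjusted p under 0.05 and a log2 fold change beyond 1 (0.5 in whole lung), and the genotype by tissue interaction was called on the adjusted p alone. Recovered reads were tested as an alternative in edgeR 4.0.16 and in DESeq2 1.42.0, and edgeR with TMM and its filter called 4698 genes between lung and BM, 3341 between PB and BM and 2479 between lung and PB. The recovery of reads and the limma, edgeR and DESeq2 fits were tested on simulated data. Replicates of a group differed by more than sampling noise and none were merged. Same-numbered libraries did not deviate together (r between -0.08 and 0.06), and no label ties them to 1 animal, so the numbers were not taken as pairs. 

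The 4 members and all gene lists were chosen with earlier results of these data known. Named genes were the members, 10 fixed companions (Ctsc, Srgn, Serpinb1a, Prss57, Ms4a3, Cebpe, Gfi1, Epx, Lpo and Cfd), up to 3 called genes a list and comparison by size of change, and the genes most like each member; Bpi, Spi1, Plppr3, Mki67, Hsp90b1 and the whole-lung markers were added for their role.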

Additional observations from a re-analysis of the deposited data

Results flagged for a closer look

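Mpo averaged 0.0652 FPKM in the 3 neutrophil-depleted whole lungs and was listed at 0 in all 3 control lungs. It was looked at again because the signal stood above the controls in tissue outside the comparisons of sorted cells. limma without a filter gave a log2 fold change of 0.09 with an adjusted p of 0.554.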

How the results depend on the processing

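By limma 0 members were called in each of 9 comparisons, but its filter left at most Prtn3 to test. Between Piezo1-cKO lung and PB and in whole lung it left no member. On adjusted p alone 1 member (Prtn3) was called from BM to PB, from PB to lung and between genotypes in lung. With a pseudocount of 0.1 again 1 was called between genotypes in lung, where 5.16% of all genes were. edgeR with TMM or RLE called 1 from BM to PB (Mpo), 2 between genotypes in lung and 2 between WT lung and WT PB (Mpo and Prtn3 in both). In each of these Mpo passed the filter through the group where it was higher. Between genotypes in lung 13.8% of all genes were called with TMM. Without a filter edgeR called 1 from BM to lung (37.6% of all genes), 2 from BM to PB (25.5%) and 1 between genotypes in lung (6.26%). It called 1 between genotypes in PB (19.4%) and 2 between WT lung and WT PB (25.8%). DESeq2 called 1 in each of these comparisons except 0 between genotypes in PB. limma without a filter called 1 in the interaction (Mpo, with 1 read at most in a PB library of that experiment), where 31.4% of all genes were called. Leaving out each library in turn gave 0 to 1 members by limma between genotypes in lung and in the interaction and 0 elsewhere. In the same step edgeR without a filter, a set of fits chosen after seeing the data, gave 0 to 1 from BM to lung, between genotypes in PB and in the interaction, 0 to 2 from BM to PB, between genotypes in lung and between WT lung and WT PB, and 0 elsewhere. In the Piezo1 experiment this leaves 1 library in a group, which is then assumed to vary like the others. The cause of these changes was not tested.

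Prtn3 from BM to lung reversed to 0.20 with rescaled FPKM, 0.53 with edgeR and TMM, 0.58 with RLE, 0.47 without a filter and 0.55 with DESeq2, and between genotypes in PB, where leaving out 1 library gave -0.26 to 0.026, without Piezo1-cKO replicate 1. With rescaled FPKM the genes called between lung and BM split into 1371 higher and 1408 lower, against 812 and 2965 before, and those between lung and PB into 913 and 498, against 587 and 1476. For WT lung against WT PB the split went from 536 and 1893 to 881 and 738, and in Piezo1-cKO from 568 and 1644 to 942 and 602. With the replicate number as a block and the same filter, which left at most Prtn3 to test, 0 members were called in each comparison. The number of all genes called moved by less than 1.5 times except in whole lung (1 to 5). The replicate numbers were not shown to pair the libraries. Count tests were not run on whole lung, where reads were not recovered. Depth limits Elane and Ctsg most, at 3 reads or fewer in most groups.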
